A study of Mus musculus with 6 samples.

Results

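The small leucine-rich proteoglycans (SLRPs), together with Mfap4 and Pcolce, were examined in the brains of male mice with and without an activated human SRY transgene. The members were 10 fibroblast matrix genes, Mfap4, Lum, Dcn, Bgn, Ogn, Fmod, Omd, Aspn, Prelp and Pcolce, and every probe carrying one of these symbols was taken. They had 14 of the 25697 probes of the deposited table. Of these, 9 probes of 8 genes gave a signal above background on all 6 arrays and were tested, and 5 probes were below background on every array. The genes were selected on measured values, since their differences between the genotypes on these same arrays were already known, so all comparisons of them between hSRY-ON and hSRY-OFF describe these arrays and carry no independent weight.

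Whole brains were taken on postnatal day 6 from male FVB/N mice, with 3 arrays per genotype. Both genotypes carried the Signalox-hSRY transgene as a single copy at the H11 locus on chromosome 11. In hSRY-OFF mice, used as controls, the transgene was not recombined, so that the CAG promoter, active in most cell types, drove the red reporter DsRed2. In hSRY-ON mice, Cre protein carried over in the oocyte from Ddx4-Cre mothers had removed the blocking cassette at the earliest embryonic stage, which placed FLAG-tagged human SRY and EGFP behind the same promoter. The hSRY-ON mice used for the arrays had not inherited the Ddx4-Cre transgene themselves. Activation was thus not restricted to the brain. Expression of the human SRY, DsRed2 and EGFP sequences was not read from these arrays, and the probe of the mouse Sry gene was below background on all 6 arrays, so the arrays themselves do not check the genotype. The arrays reported a mean bead signal for each probe, with a median of 200 to 220 per array, and 13816 to 14377 probes per array were detected above background. Among neuronal markers, Stmn2, Syt1 and Tubb3 were detected on all arrays, whereas the Snap25 probe was below background on all of them.

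SLRPs are secreted proteins built around a curved stretch of leucine-rich repeats, and most carry chondroitin, dermatan or keratan sulfate chains. They bind to collagen fibrils and regulate how thick and how regularly spaced these become, and decorin and biglycan also bind growth factors such as TGF-β. Mfap4 is a secreted glycoprotein attached to elastic microfibrils, and Pcolce enhances the removal of the C-terminal propeptide of fibrillar procollagens. In the brain, this fibrous matrix is a feature of the meninges and of the perivascular spaces rather than of the neural parenchyma, and its fibroblasts are a small fraction of a whole brain. In a whole-brain extract, fewer such cells and less RNA per cell cannot be told apart.

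Several of these genes lie side by side in the genome. In the RefSeq annotation of GRCm38.p6, in which all 10 were found, Ecm2, Aspn, Omd and Ogn are consecutive protein-coding genes, as are Dcn, Lum, Kera and Epyc, and Optc, Prelp and Fmod. The stretch upstream of the gene start was available for 7 of the 10 genes, namely Bgn, Ogn, Fmod, Pcolce, Prelp, Omd and Aspn. Those of 5 detected genes are shown, 4 whose signals were lower on all hSRY-ON arrays and Prelp, whose signals were not, each as the 250 bases before the gene start, 5′ to 3′ on the strand of the gene (RefSeq, GRCm38.p6). Capitals mark matches to 3 short motifs on either strand, the SRY core AACAAT, the TATA box TATAAA and the GC box GGGCGG.
Bgn (chrX:73483351-73483600, + strand): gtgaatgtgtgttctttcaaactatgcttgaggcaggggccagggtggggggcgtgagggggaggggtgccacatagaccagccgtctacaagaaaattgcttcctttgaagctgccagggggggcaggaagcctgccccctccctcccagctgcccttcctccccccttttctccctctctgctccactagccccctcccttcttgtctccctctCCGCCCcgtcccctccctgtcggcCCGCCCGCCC
Ogn (chr13:49607765-49608014, + strand): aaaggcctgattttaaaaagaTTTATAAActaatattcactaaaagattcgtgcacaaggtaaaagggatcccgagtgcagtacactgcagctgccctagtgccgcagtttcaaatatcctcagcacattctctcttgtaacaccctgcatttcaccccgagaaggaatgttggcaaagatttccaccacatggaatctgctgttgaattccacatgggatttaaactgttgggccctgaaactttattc
Fmod (chr1:134037004-134037253, + strand): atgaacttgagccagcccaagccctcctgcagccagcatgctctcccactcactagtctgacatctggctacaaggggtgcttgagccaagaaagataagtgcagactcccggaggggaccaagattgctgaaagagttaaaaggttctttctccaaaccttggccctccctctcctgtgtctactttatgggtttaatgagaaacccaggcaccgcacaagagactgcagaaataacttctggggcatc
Pcolce (chr5:137611405-137611654, - strand): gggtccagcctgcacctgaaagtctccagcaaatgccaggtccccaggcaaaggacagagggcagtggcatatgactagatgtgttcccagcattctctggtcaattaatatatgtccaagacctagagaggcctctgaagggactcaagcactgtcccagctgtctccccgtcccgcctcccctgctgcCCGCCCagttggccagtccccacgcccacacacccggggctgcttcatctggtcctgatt
Prelp (chr1:133921402-133921651, - strand): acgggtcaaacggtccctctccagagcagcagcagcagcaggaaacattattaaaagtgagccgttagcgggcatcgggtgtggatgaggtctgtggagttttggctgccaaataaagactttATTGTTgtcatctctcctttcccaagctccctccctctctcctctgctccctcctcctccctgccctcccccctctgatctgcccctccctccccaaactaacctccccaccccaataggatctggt

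The windows differed in composition, with 64.4% G and C in Bgn and 42% in Ogn. The Bgn window held 3 matches to the GC box, 2 of which overlapped by 2 bases, close to the gene start, and Pcolce held 1. The Ogn window held 2 overlapping matches to the TATA box letters, which lay far upstream at -229 and -227, counted back from the gene start, and Fmod held no match to any of the motifs. The SRY core was matched in Prelp, at -127, and in the window of Aspn, and in none of the windows of Bgn, Ogn, Fmod, Pcolce and Omd. Of 32851 mouse promoter windows of the same length, 9.42% held the SRY core, 12.4% the TATA box and 32.7% the GC box. These matches describe the letters of the windows and do not show that a protein binds there.

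Mfap4 showed the largest difference among the members. Its probe (ILMN_2633350) had normalized log2 signals of 9.47, 9.88 and 9.69 for the controls, given here and below in the order of arrays 1 to 3, and of 8.24, 8.46 and 8.68 for hSRY-ON. All 3 hSRY-ON arrays lay below all hSRY-OFF arrays, with a gap between the groups wider than the spread within either. On the bead scale before any correction, the signals were 961, 1088 and 943 against 461, 482 and 538. The mean fell by 1.22 on the log2 scale (SE 0.15, 95% confidence interval -1.57 to -0.87), from 9.68 ± 0.20 to 8.46 ± 0.22 (SD, n = 3 per group), which is 2.33-fold. In the limma fit over the 14215 tested probes of the table, the adjusted p was 0.0263, and Mfap4 was the only member probe called at an adjusted p under 0.05. Over all tested probes, 2.17% were called, 1.32% as lower and 0.844% as higher in hSRY-ON, and the difference of Mfap4 was the 9th largest decrease of the table. The call ended when any array other than hSRY-ON array 3 was left out, with log2 fold changes of -1.32 to -1.11 and adjusted p-values of 0.0692 to 0.109 in these limma fits, and was kept without hSRY-ON array 3, at -1.33 and 0.0219.

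**Figure D1:**
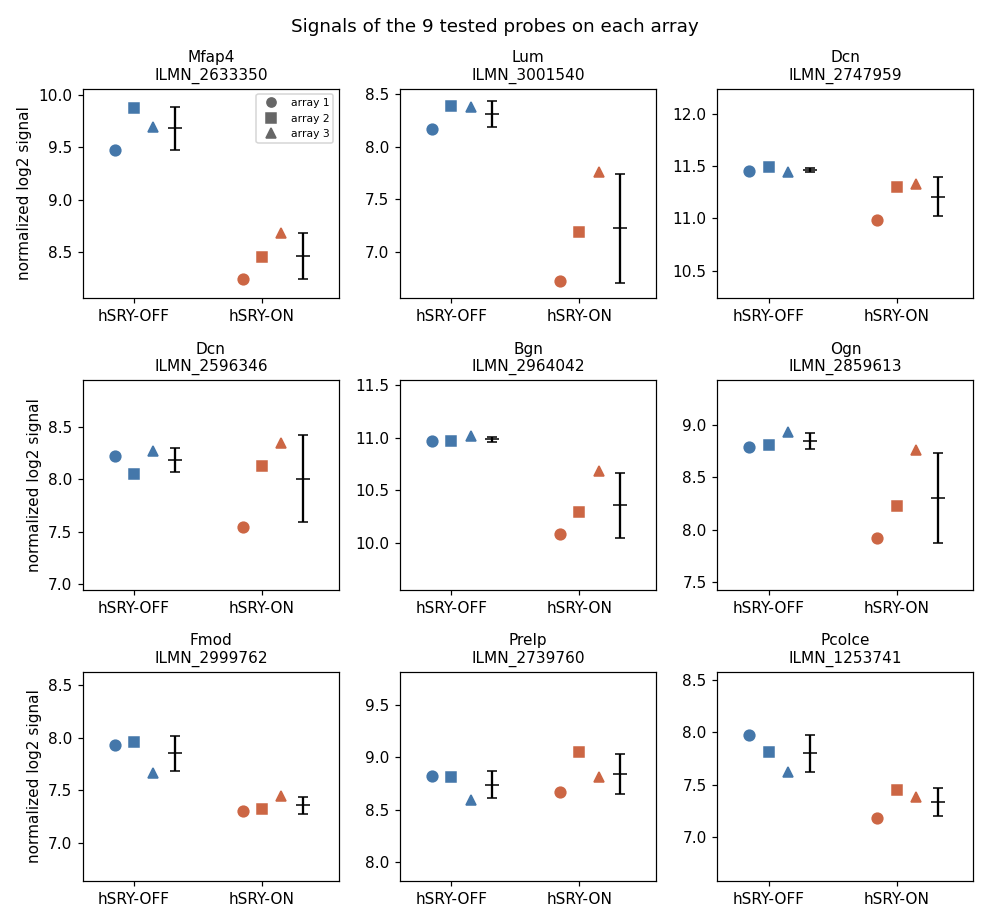
Normalized log2 signals of the 9 tested probes, with the hSRY-OFF arrays in blue and the hSRY-ON arrays in orange, each symbol an array, and the mean and SD (n = 3) in black; every panel spans 2 log2 units. The hSRY-ON arrays of Mfap4 and Lum lie below all hSRY-OFF arrays, and hSRY-ON array 1 has the lowest hSRY-ON value in all 9 panels.

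Lum, which encodes lumican, a keratan sulfate proteoglycan that orders collagen fibrils, was next in size. The log2 signals of its probe (ILMN_3001540) were 8.17, 8.39 and 8.38 in hSRY-OFF and 6.73, 7.19 and 7.76 in hSRY-ON. The groups did not overlap, but the hSRY-ON arrays were spread over 1.04 on the log2 scale, with an SD of 0.52 against 0.12 in hSRY-OFF. The log2 fold change was -1.09 (SE 0.24, 95% confidence interval -1.66 to -0.52) and the adjusted p in limma was 0.0682. Array 3 of hSRY-ON was the closest to the controls, and without it the difference was -1.36 with an adjusted p of 0.0252. Without hSRY-ON array 1 it was -0.84 (adjusted p 0.124), and the other 4 fits with 1 array left out gave adjusted p-values of 0.142 to 0.174. Without background correction the difference of Lum was -0.63 (adjusted p 0.0018).

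Bgn and Dcn encode biglycan and decorin, the closely related SLRPs with chondroitin or dermatan sulfate chains. Bgn (ILMN_2964042) had log2 signals of 10.97, 10.97 and 11.01 in hSRY-OFF and of 10.09, 10.29 and 10.69 in hSRY-ON. The hSRY-OFF arrays were nearly identical and every hSRY-ON array was lower. The log2 fold change of Bgn was -0.63 (SE 0.15, 95% confidence interval -0.99 to -0.28, adjusted p 0.0791 in limma), and it was -0.80 without hSRY-ON array 3 (adjusted p 0.0252) and -0.50 without hSRY-ON array 1 (adjusted p 0.170). Dcn had 2 detected probes. The brighter one (ILMN_2747959) read 11.46, 11.49 and 11.44 in hSRY-OFF and 10.99, 11.30 and 11.33 in hSRY-ON, again without overlap. Its difference was smaller, with a log2 fold change of -0.25 (SE 0.11, 95% confidence interval -0.51 to 0.00030, adjusted p 0.239 in limma), and it was -0.15 without hSRY-ON array 1 (adjusted p 0.419). The dimmer Dcn probe (ILMN_2596346) read 8.22, 8.05 and 8.27 in hSRY-OFF and 7.54, 8.13 and 8.35 in hSRY-ON. Here the groups overlapped, since hSRY-ON array 1 alone was below the controls, and the log2 fold change of -0.18 (SE 0.20, 95% confidence interval -0.65 to 0.30) turned to 0.06 without that array.

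Ogn, which encodes osteoglycin (mimecan), had 3 probes, of which 1 was detected. That probe (ILMN_2859613) gave log2 signals of 8.79, 8.81 and 8.93 in hSRY-OFF and of 7.92, 8.22 and 8.76 in hSRY-ON. All hSRY-ON arrays were lower, although array 3 was only just below the lowest control. The log2 fold change was -0.54 (SE 0.20, 95% confidence interval -1.01 to -0.07, adjusted p 0.187 in limma), and it was -0.77 without hSRY-ON array 3 (adjusted p 0.0357) and -0.35 without hSRY-ON array 1 (adjusted p 0.360). Both other Ogn probes (ILMN_2740622 and ILMN_2859619) were below background on all 6 arrays, so the level of Ogn rests on a single probe. Its neighbours Omd and Aspn, which encode osteomodulin and asporin, were likewise below background on all arrays, with bead signals of 156 to 182 for Omd and of 151 to 176 for Aspn, and the remaining neighbour Ecm2 was not detected either.

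Fmod and Prelp, separated by no other protein-coding gene, were read apart from each other. Fmod encodes fibromodulin, a keratan sulfate SLRP that binds type I collagen. Its detected probe (ILMN_2999762) had log2 signals of 7.93, 7.96 and 7.66 in hSRY-OFF and of 7.30, 7.32 and 7.44 in hSRY-ON, with every hSRY-ON array lower. The hSRY-ON arrays of Fmod were close together, with an SD of 0.08 against 0.16 in hSRY-OFF. Its log2 fold change was -0.50 (SE 0.11, 95% confidence interval -0.74 to -0.25) with an adjusted p of 0.0604 in limma, the lowest among the member probes that were not called, and it was -0.28 without background correction (adjusted p 0.0215). The other Fmod probe (ILMN_1230020) was below background. Prelp, an SLRP with a basic N-terminal region that binds heparan sulfate, read 8.82, 8.81 and 8.59 in hSRY-OFF and 8.66, 9.04 and 8.81 in hSRY-ON at its single probe (ILMN_2739760). The groups overlapped, and Prelp was the only tested member with a positive log2 fold change, 0.10 (SE 0.12, 95% confidence interval -0.18 to 0.39, adjusted p 0.674 in limma). The interval of Prelp did not reach the log2 fold changes of Mfap4 or Lum, which is a description, since all of them were selected with their values known.

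Pcolce (ILMN_1253741) is not an SLRP but acts on the same collagens. Its log2 signals were 7.97, 7.81 and 7.62 in hSRY-OFF and 7.19, 7.45 and 7.38 in hSRY-ON. No hSRY-ON array reached the lowest control, and the log2 fold change was -0.46 (SE 0.12, 95% confidence interval -0.74 to -0.18, adjusted p 0.0910 in limma), and it was -0.26 without background correction (adjusted p 0.0368).

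**Figure D2:**
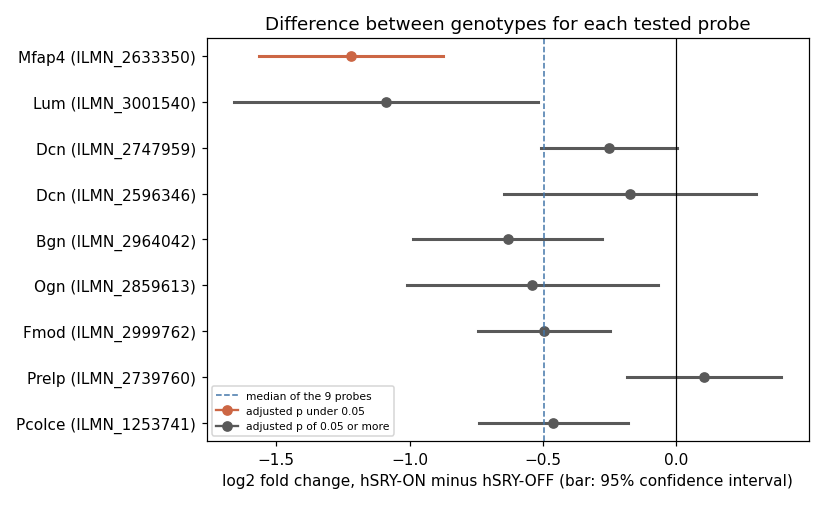
Log2 fold change, hSRY-ON minus hSRY-OFF, of each tested probe with its 95% confidence interval from the limma fit; orange marks the probe called at an adjusted p under 0.05 and the dashed line is the median of the 9 probes, -0.50. Mfap4 and Lum lie furthest below 0, and the intervals of both Dcn probes and of Prelp include 0.

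Read together, 8 of the 9 tested probes had a negative log2 fold change, where 48.9% of all tested probes did. For 7 of the 9, all 3 hSRY-ON arrays lay below all hSRY-OFF arrays, against 14.2% of all tested probes. An unadjusted p under 0.05 with a lower mean was found for 6 of the 9, against 10.9% of all. The median log2 fold change was -0.50 over the 9 probes and 0.0048 over the whole table. All 9 were detected on all 6 arrays, so none entered through a single genotype. As the genes were chosen with these values in view, the shares are given as a description and nothing is read from their excess.

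The hSRY-ON arrays differed in how far they departed from the controls. Array 1 gave the lowest hSRY-ON value for all 9 probes, as it did for 32.8% of all tested probes, and array 3 the highest for 7 of them (35.5% of all), the exceptions being Prelp and Pcolce. Of the 7 probes without overlap, 6 had array 1 lowest and array 3 highest, whereas this held for 27.7% of all probes in the table with hSRY-ON wholly below hSRY-OFF. Averaged over the 8 detected genes with the brightest probe of each, the log2 signals centred on each probe's mean were 0.27, 0.34 and 0.24 for the controls and -0.53, -0.26 and -0.06 for hSRY-ON. The spread between replicates was larger in hSRY-ON for 7 of the 9 probes, as it was for 59.1% of all. The members measured on one array are not independent of each other, and whether array 1 or array 3 of hSRY-ON differs in the makeup of the extract was not tested.

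**Figure D3:**
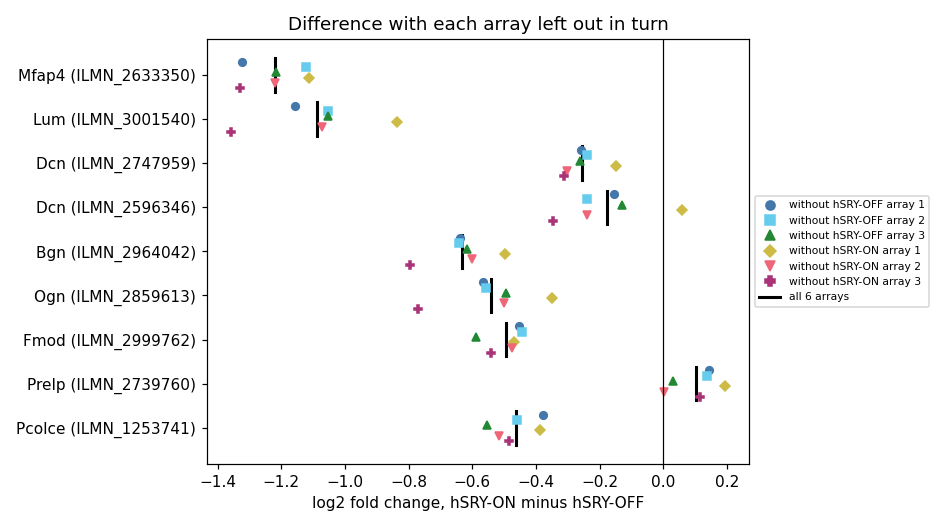
Log2 fold change of each tested probe with all 6 arrays (black line) and with each array left out in turn (symbols). Leaving out hSRY-ON array 1 moves Lum, Ogn, Bgn and Dcn toward 0, leaving out hSRY-ON array 3 moves them away from 0, and Mfap4 stays between -1.33 and -1.11.

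The remaining genes of the SLRP family and of the pathways around it were then read in the same fit, from lists that were likewise made with earlier results of these arrays known. Probes of other SLRPs were mostly undetected on these arrays. Of 9 such genes, 7 (Chad, Ecm2, Epyc, Kera, Nyx, Optc and Podnl1) were not detected often enough to be tested. Podn and Tsku were dim. Podn was detected on 3 hSRY-OFF and 1 hSRY-ON arrays and Tsku on 1 hSRY-OFF and 3 hSRY-ON arrays, so each passed the filter through the genotype in which it was higher and its direction is not read. Their log2 fold changes were -0.35 for Podn and 0.28 for Tsku, and limma called neither (1 at an unadjusted p under 0.05). Within the SLRPs, the tested probes were thus those of Lum, Dcn, Bgn, Ogn, Fmod and Prelp and, near background, of Podn and Tsku. An undetected probe does not show that its gene is off, since Ogn and Fmod had undetected probes beside a detected probe.

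Elastic fibre and microfibril genes, to which Mfap4 belongs by function, moved in both directions. Their list also held Mfap1a, Mfap1b, Mfap3 and Mfap3l, which carry the Mfap name and whose place in these fibres was not checked. Of 25 tested probes of 17 genes, 9 were lower and 16 higher in hSRY-ON, with a median log2 fold change of 0.06. Called upward were Lox and Fbn1. Lox, the lysyl oxidase that crosslinks collagen and elastin, had log2 signals of 7.61, 7.72 and 7.56 in hSRY-OFF and of 8.16, 8.31 and 8.29 in hSRY-ON and rose by 0.62 (SE 0.09, adjusted p 0.0294 in limma). Fbn1, which encodes fibrillin 1, the main microfibril protein, rose from 7.69, 7.88 and 7.83 to 8.19, 8.38 and 8.34, by 0.50 (SE 0.09, adjusted p 0.0478). Both genes were thus higher on every hSRY-ON array, on which Mfap4 was lower. Mfap3l was the single probe called downward, at -0.79 (SE 0.11, adjusted p 0.0263). Eln, the elastin gene, and Mfap2 are detected constituents of the same fibres. Eln differed by 0.08 (adjusted p 0.672) and the brightest of the 3 Mfap2 probes by 0.15 (adjusted p 0.430). The next brightest probes of the list, both for Mfap3, differed by 0.19 (adjusted p 0.484) and 0.12 (adjusted p 0.417).

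Among the fibril-forming and associated collagens, 7 of 8 tested probes were lower, with a median of -0.13, where 48.9% of all tested probes were lower. Limma called none, with 3 at an unadjusted p under 0.05, against 20.9% of all tested probes. Col3a1, lower, and Col5a3, higher, passed the filter mainly through the genotype in which they were higher, and without them 6 of 6 probes were lower, with 1 at an unadjusted p under 0.05. That probe was for Col1a1. Col1a1, which encodes a chain of type I collagen, had log2 signals of 9.20, 9.17 and 9.34 in hSRY-OFF and of 8.19, 8.48 and 8.96 in hSRY-ON. The groups did not overlap, the hSRY-ON arrays stood in the same order as for Lum and Bgn, and the log2 fold change was -0.69 (SE 0.19, adjusted p 0.102). Col1a1 ranged from -0.90 to -0.52 over the 15 alternatives and was called in 4 of them, including the fit without hSRY-ON array 3. The brightest probe of Col6a1 and the probe of Col5a1 differed by -0.05 (adjusted p 0.866) and -0.25 (adjusted p 0.306). Of 19 tested probes for procollagen processing, 10 were lower and 9 higher (median -0.06), and none was called by limma (4 at an unadjusted p under 0.05). The brightest were 2 probes of Sparc, a collagen-binding matricellular protein, which differed by 0.11 (adjusted p 0.580) and 0.33 (adjusted p 0.104), and the probe of Plod3, a lysyl hydroxylase, which differed by 0.07 (adjusted p 0.704). Serpinh1, the collagen chaperone HSP47, picked out after its values were seen, read 9.07, 8.69 and 8.91 against 7.87, 8.26 and 8.62, a difference of -0.64 (SE 0.19, adjusted p 0.129), and was called in 3 of the 15 alternatives.

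**Figure D4:**
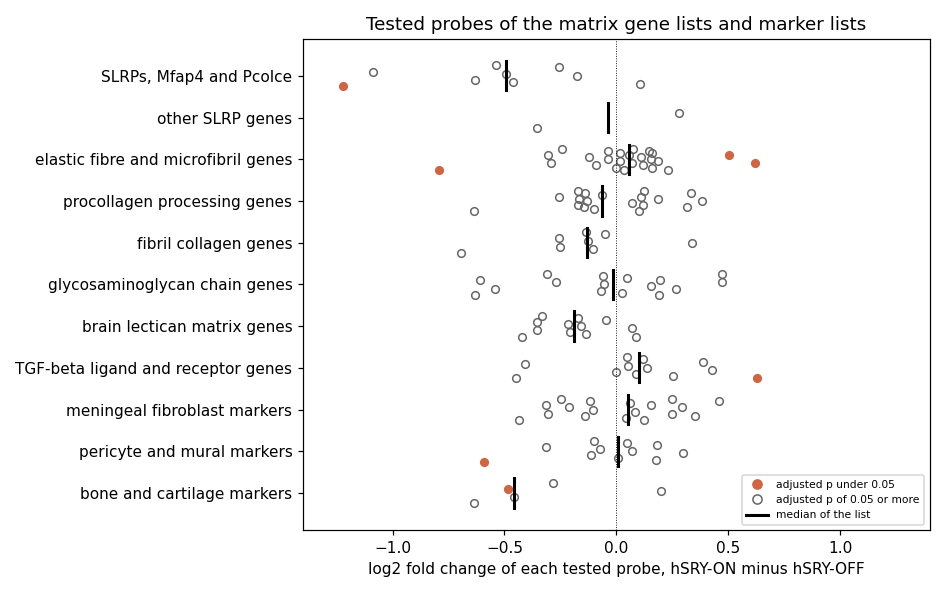
Log2 fold change, hSRY-ON minus hSRY-OFF, of every tested probe (circles) in the matrix gene lists and in 3 marker lists, with the median of each list as a black bar; filled circles have an adjusted p under 0.05. The median lies at -0.50 for the SLRPs with Mfap4 and Pcolce, at 0.06 for the elastic fibre and microfibril genes and at 0.05 for the meningeal fibroblast markers.

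The sugar chains of SLRPs are built by enzymes shared with other proteoglycans. Of 16 tested probes for these enzymes, 8 were lower and 8 higher (median -0.02). Limma called none, with 5 at an unadjusted p under 0.05, against 20.9% of all tested probes. Chst1, a keratan sulfate sulfotransferase, differed by -0.06 (adjusted p 0.774), Chst2, another sulfotransferase, by 0.47 (adjusted p 0.0755), and B3gat3, which completes the linker between core protein and chain, by 0.05 (adjusted p 0.849). The lecticans and their partners form the matrix of the neural tissue itself. Of their 12 tested probes, 10 were lower (median -0.19), where 48.9% of all tested probes were lower. None was called by limma, with 4 at an unadjusted p under 0.05, against 20.9% of all tested probes. The brightest probe of Bcan, which encodes brevican, differed by 0.07 (adjusted p 0.739), that of Ncan, neurocan, by -0.05 (adjusted p 0.755), and that of Tnc, tenascin C, by -0.36 (adjusted p 0.0595). TGF-β ligands, receptors and mediators had 3 probes lower and 9 higher (median 0.10). Tgfbi, a matrix protein named for its induction by TGF-β, rose from 7.60, 7.54 and 7.47 to 8.19, 8.12 and 8.19, by 0.63 on the log2 scale (SE 0.08, adjusted p 0.0263). A dimmer Tgfbi probe differed by 0.43 (adjusted p 0.323). The brightest probes were those of Tgfbr1, Tgfbr2 and Smad2, with differences of 0.12 (adjusted p 0.493), -0.45 (adjusted p 0.0565) and -0.41 (adjusted p 0.0756). Lox, Mfap3l and Tgfbi kept an adjusted p under 0.05 without hSRY-ON array 3 and lost it without any other array, and Fbn1 lost it without each of the 6, while all kept their sign. Over the 15 alternatives, the log2 fold change ranged from -0.87 to -0.33 for Mfap3l, from 0.39 to 0.67 for Lox, from 0.32 to 0.56 for Fbn1 and from 0.38 to 0.66 for Tgfbi.

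Markers of the cells that could carry this matrix were set beside the members. Meningeal fibroblast markers, which share no gene with the members but include the collagen gene Col15a1 (-0.32, adjusted p 0.201), had 8 of 18 tested probes lower and 10 higher (median 0.05). None was called by limma, with 8 at an unadjusted p under 0.05 in both directions, against 20.9% of all tested probes. Their summed normalized signal, over the brightest probe of each of 15 genes, was 29832 to 32233 in hSRY-OFF and 30140 to 32429 in hSRY-ON, and Foxc2, Foxd1 and Tbx18 were not tested for lack of detection. Foxc1, a transcription factor of meningeal fibroblasts, differed by 0.13 (adjusted p 0.448), and the brightest markers Igf2, Ptgds and Igfbp2 by -0.10 (adjusted p 0.500), 0.35 (adjusted p 0.151) and -0.30 (adjusted p 0.151). Such sums add signals of different probes and follow the brightest. Without Igf2, which weighs most, the sum was 13493 to 14758 in hSRY-OFF and 14917 to 16449 in hSRY-ON. Ptgds, which was higher in hSRY-ON, weighs most in that remaining sum, and the sum without Ptgds was not taken.

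Pericyte and mural markers had 5 probes lower and 6 higher (median 0.0095), with a summed signal of 4825 to 5085 in hSRY-OFF and 3668 to 4330 in hSRY-ON. Without Vtn, the brightest of them, the sum was 2130 to 2247 in hSRY-OFF and 1998 to 2251 in hSRY-ON, so the groups then overlapped. Vtn, which encodes vitronectin, was called downward, by -0.59 (SE 0.10, adjusted p 0.0386), whereas the brightest of the 4 Acta2 probes differed by 0.05 (adjusted p 0.860) and Rgs5 by -0.31 (adjusted p 0.213), and Myh11 and Tagln were not tested. Endothelial markers had 6 of 10 probes lower (median -0.14, summed signal 11176 to 11633 against 10527 to 11554), with none called by limma and 7 at an unadjusted p under 0.05, which 20.9% of all tested probes had. The endothelial genes lay far apart, from -0.53 for Tek (adjusted p 0.0861), -0.42 for Cldn5 (adjusted p 0.126) and -0.36 for Slco1c1 (adjusted p 0.0801) to 0.49 for Flt1 (adjusted p 0.131), 0.60 for Slc2a1 (adjusted p 0.107) and 1.03 for Ly6a (adjusted p 0.0807). Choroid plexus markers had 11 of 12 probes higher (median 0.30, summed signal 16536 to 19569 against 19907 to 24936), with 1 of 3 Aqp1 probes called upward by 0.67 (adjusted p 0.0348). In the limma fit 7 had an unadjusted p under 0.05, against 20.9% of all tested probes, and 48.9% of all had a negative log2 fold change. Ttr, which weighs most in that sum, differed by 0.37 (adjusted p 0.144), and without it the sums overlapped (2442 to 2736 against 2732 to 3332). Kl was detected on 0 hSRY-OFF and 3 hSRY-ON arrays and so passed the filter through hSRY-ON alone. Without Kl, 10 of 11 probes were higher (median 0.23), with 6 at an unadjusted p under 0.05.

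Tissue from outside the brain was looked for in the same way. Of 10 bone and cartilage markers, 6 were not tested, among them Bglap1, Bglap2, Runx2 and Matn1. A Bglap1 probe (ILMN_2610166) and the Bglap2 probe were each detected on 1 hSRY-ON array. The Bglap1 probe read 6.42 on hSRY-ON array 3 and at most 5.01 elsewhere, and the Bglap2 probe 5.84 and at most 5.26. The other Bglap1 probes were detected on no array, and Comp, also detected on 1 hSRY-ON array, was highest on array 2. The 5 tested probes of this list had a median of -0.46, with 4 lower, among them Sp7, detected on 3 hSRY-OFF and 1 hSRY-ON arrays, without which 3 of 4 were lower (median -0.39). The list had a summed signal of 334 to 373 in hSRY-OFF and 253 to 299 in hSRY-ON, which overlapped without Col2a1 (139 to 194 against 147 to 162). Both Col2a1 probes were lower, by -0.64 (adjusted p 0.0522) and by -0.49 (adjusted p 0.0479), and the second was called. Skin markers Krt5, Krt14, Krt15 and Sfn were not tested for lack of detection, while Krt10 and Lor differed by -0.19 (adjusted p 0.309) and 0.05 (adjusted p 0.802). Of the skeletal muscle markers, Ckm, Mylpf, Tnnc2 and Tnnt3 were not tested, and 2 of the 4 tested probes were lower and 2 higher (median -0.05). Acta1 was called upward by 0.43 (adjusted p 0.0479), the Myh8 probes differed by 0.02 (adjusted p 0.939) and -0.12 (adjusted p 0.830), and Myog, detected on 3 hSRY-OFF and 1 hSRY-ON arrays, by -0.32 (adjusted p 0.563). Erythroid, neuron and astrocyte markers had medians of -0.08, -0.02 and -0.04, and among them limma called 0, 0 and 2 probes (0, 0 and 3 at an unadjusted p under 0.05), both called probes, Aqp4 and Gfap, being lower. Vtn, the called Aqp1 probe, Aqp4 and Gfap kept their calls without hSRY-ON array 3 and lost them without any other array, and Col2a1 and Acta1 lost theirs without each of the 6. Over the 15 alternatives, the called Col2a1 probe ranged from -0.54 to -0.23, Gfap from -0.95 to -0.51 and the called Aqp1 probe from 0.43 to 0.75. The part that any of these cell types has in the signals of the members was not tested.

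The probes of other genes whose profiles over the 6 arrays lay nearest to the mean profile of the detected members were named by the smallest root mean square difference of centred log2 signals. These were both probes of Ccnd1 (difference 0.042 for each), which encodes cyclin D1, and the probes of Rangrf (0.043), Mtap (0.049) and Matn4 (0.052). Ccnd1 had log2 signals of 11.37, 11.36 and 11.30 in hSRY-OFF and of 10.60, 10.88 and 11.04 in hSRY-ON at its nearest probe, with array 1 lowest and array 3 highest, as in Lum. Matn4, which encodes matrilin 4, an extracellular adaptor protein, was the only matrix gene of the 4, with 10.12, 10.30 and 10.18 against 9.28, 9.63 and 9.78. None of these 5 probes was called, with adjusted p-values of 0.0568 to 0.0881 in limma, and nearness of profiles over 6 arrays is a description only.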

How the data were processed

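RNA of whole brain from 3 hSRY-OFF and 3 hSRY-ON mice was hybridized to Illumina MouseRef-8 v2.0 arrays. The authors deposited, for each probe and array, a mean bead signal intensity on a linear scale, with no normalization, and a detection p-value, which ranks the probe among negative controls (798 per array, inferred from the steps of these values). Background correction by the authors is not given in the sources used here, and their methods name the package TCC without settings, which was not used. Samples were grouped by their titles. The table and labels used here carry no chip or scan date, so no batch was examined. The litter of each mouse and the cross that gave the hSRY-OFF mice are not stated either. Differences between litters or mothers could therefore not be told apart from genotype. The labels do not say which animal each array came from, and p-values measure the spread between these samples.

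The background was removed here by normexp in limma 3.58.1 (R 4.3.3), with the negative controls inferred from the detection p-values and an offset of 16, quantile normalized and put on the log2 scale, which widens the spread of dim probes and may shrink differences near the background. A probe was kept if 3 or more of the 6 arrays had a detection p-value below 0.05, and tested with lmFit and eBayes (two-sided, Benjamini-Hochberg over all tested probes, call at an adjusted p under 0.05). Each adjusted p in the text is from this fit unless another is named. Probes were tested one by one, and signals of different probes are not comparable as levels. The steps were checked on simulated data. Alternatives were other background corrections, normalizations, filters and priors, array weights, a replicate block and leaving out each array. The members and lists were chosen with earlier results of these data known. All probes of the members were named, and of each other matrix list the called probes and the 3 brightest. Eln, Serpinh1 and the cell type markers other than the called ones were picked after their values were seen. Upstream sequences came from RefSeq (GRCm38.p6). Figures were drawn with matplotlib 3.10.9.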

Additional observations from a re-analysis of the deposited data

How the results depend on the processing

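Across 15 alternatives, the log2 fold changes of the 9 tested member probes kept their sign in all but 1 of 135 values. The exception was the dimmer Dcn probe, at 0.058 without hSRY-ON array 1, which ranged from -0.35 to 0.058 when 1 array was left out. The calls depended on the processing far more than the directions, and the cause was not tested. The count of 1 called member probe (308 over all tested probes) became 6 (1317) without background correction, 4 (860) with normexp on the signals and an offset of 50, 4 (705) with a detection p-value under 0.01 on all arrays, 7 (1447) with a trend and robust prior and 3 (480) with array weights, and each of these included Mfap4 and Lum. With no filter the counts were 1 (123), with median scaling 1 (332) and with cyclic loess 1 (338). Leaving out 1 array gave 0 to 4 called member probes and 0 to 417 over all probes (5 to 7 and 2236 to 3150 by an unadjusted limma p under 0.05). The 4 and the 417 came without hSRY-ON array 3, and leaving out any other array gave 0 and at most 1. Deviations of same-numbered arrays correlated at 0.0251 to 0.0404 and those of differently numbered arrays at -0.023 to -0.00544. Each array thus correlated best with its own number, but values this small do not settle whether the numbers pair the samples. With the replicate block, 0 member probes and 0 of all probes were called in limma (6 and 2906 at an unadjusted p under 0.05). Mfap4 had an adjusted p of 0.0986 in that fit. Mfap4 ranged from -1.33 to -0.95 over all alternatives, Lum from -1.36 to -0.63, Bgn from -0.80 to -0.50, Ogn from -0.77 to -0.35, Fmod from -0.59 to -0.28, Pcolce from -0.55 to -0.26, the brighter Dcn probe from -0.31 to -0.15 and Prelp from 0.0030 to 0.19. Without background correction, which by construction compresses differences, Mfap4, Lum, Fmod and Pcolce had their smallest values. With 3 arrays per group, precision is limited by their number, and members below background have no measured difference.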
